A study of Mus musculus with 14 samples.

Results

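The 7 genes described here cover the life cycle of the inhibitory transmitter GABA and the chloride gradient it acts on: Gad1 and Gad2 (synthesis), Slc32a1 (vesicle loading), Slc6a11 (uptake), Abat (breakdown), and Slc12a2 and Slc12a5 (chloride entry and exit). They are all rows of the count tables whose Ensembl ID maps to those symbols, 7 of 55359 gene IDs, and all 7 passed the filter on low counts that left 20330 genes. RNA was measured by sequencing of poly-A RNA from bulk tissue of the superior colliculus, the midbrain structure that receives retinal axons, in ICR/CD-1 mice at postnatal day 6. The 4 groups were the superficial layer after cbx (4 libraries), the superficial layer after saline (3), the deep layer after cbx (4) and the deep layer after saline (3). Every pup had an eye injection of 0.3 to 0.5 µL on postnatal day 0 or 1, of either 50 mM cbx (carbenoxolone, a blocker of gap junctions that was used to silence retinal waves) or saline, so the saline groups were injected too. Each library was made from 3 pooled brains, so the spread is between pools and not between pups.

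GABA is made from glutamate by 2 forms of glutamate decarboxylase, GAD67 (the product of Gad1, found throughout the neuron) and GAD65 (the product of Gad2, concentrated at nerve endings). The vesicular transporter VGAT (Slc32a1) packs it into vesicles, the glial transporter GAT-3 (Slc6a11) takes it up after release, and GABA transaminase (Abat) breaks it down in mitochondria. GABA-A receptors are chloride channels: NKCC1 (Slc12a2) brings chloride into the cell and KCC2 (Slc12a5), a transporter of neurons, takes it out, and in developing brain the balance between them moves from NKCC1 toward KCC2 as GABA becomes hyperpolarising. The superficial layer of the colliculus is rich in GABA neurons.

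Total counts ranged from 32004952 to 48776827 per library. Values are CPM, counts scaled to a common library total with TMM factors, and levels of different genes are compared per kilobase of exon. Differences are log2 differences from edgeR's quasi-likelihood test on all 20330 genes, called where the Benjamini-Hochberg adjusted p was under 0.05. Markers of the tectum were present (Pax7 at 87.2 to 167 CPM and Tfap2b at 164 to 547.5 CPM over the 14 libraries), whereas En1, also a midbrain gene, was at 0.258 to 1.51 CPM and the transporter Slc17a7, a marker of cortical glutamate neurons, at 1.66 to 9.35 CPM. The Y-linked gene Ddx3y was at 0 to 38.6 CPM in cbx superficial and 37.0 to 70.8 CPM in saline superficial libraries, so the pools differed in their share of male pups. In bulk tissue fewer cells of a type and less RNA per cell cannot be told apart.

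The stretches before the RefSeq starts of Gad1, Gad2 and Slc6a11 are shown because Gad1 and Gad2 encode enzymes of the same reaction yet had different layer patterns, and Slc6a11 had the opposite layer pattern to Gad1. They are RefSeq promoter sequences of build GRCm38.p6, plus strand, 5′ to 3′, ended where an annotated GENCODE M21 exon begins. The Gad2 and Slc6a11 windows end at the start of the M21 gene, whereas the Gad1 window lies inside the gene as M21 annotates it (chr2:70553072-70602014), before a later exon, because M21 also holds transcripts that begin further upstream. In the sequences, capitals mark E-boxes (CANNTG, the letters bound by basic helix-loop-helix factors, which reads CANNTG on both strands).
Gad1, chr2:70561879-70562041: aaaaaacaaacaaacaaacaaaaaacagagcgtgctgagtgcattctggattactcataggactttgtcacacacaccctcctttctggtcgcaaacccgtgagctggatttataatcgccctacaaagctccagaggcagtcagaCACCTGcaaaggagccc
Gad2, chr2:22622077-22622204: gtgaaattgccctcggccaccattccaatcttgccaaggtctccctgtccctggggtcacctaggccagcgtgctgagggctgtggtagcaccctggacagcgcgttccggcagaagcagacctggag
Slc6a11, chr6:114130991-114131240: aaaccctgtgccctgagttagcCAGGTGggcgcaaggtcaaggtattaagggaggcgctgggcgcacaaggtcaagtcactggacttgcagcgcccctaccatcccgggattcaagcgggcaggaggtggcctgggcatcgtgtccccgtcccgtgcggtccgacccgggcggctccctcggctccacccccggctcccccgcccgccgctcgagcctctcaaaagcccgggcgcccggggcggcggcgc
Gad1 and Slc6a11 each held 1 E-box, and the 128 bases of Gad2 held 0. E-boxes are common: the same stretch held at least 1 in 52.1% of 32851 promoters for the Gad1 window, 43.9% for the Gad2 window and 66.2% for the Slc6a11 window. For all promoters that stretch was the same number of bases from the beginning of the promoter sequence, without a cut at their own exons. The shares given here can therefore come from another distance to the gene start. The Slc6a11 window of 250 bases was GC-rich (71.2% G or C, 25 CpG) and held 3 GC boxes (GGGCGG or CCGCCC, found in 32.7% of promoters). The shorter Gad1 window of 163 bases was 46.6% G or C and held 1 TATAAA or TTTATA (7.78% of promoters). It had no GC box, and only 18.4% of promoters held one in a window of that length. The Gad2 window was 62.5% G or C and held 1 CCAAT or ATTGG (17.2% of promoters). No match overlapped another motif.

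Per kilobase of exon, the GABA uptake transporter was the most abundant of the 7 RNAs in each group and the chloride importer the least. Averaged over the 14 libraries, Slc6a11 was at 201 CPM per kilobase, the 122nd highest of 20245 genes with a length, Slc12a5 at 93.8 (382nd), Gad1 at 53.4 (838th), Abat at 49.1 (921st), Slc32a1 at 47.6 (952nd), Gad2 at 23.0 (2215th) and Slc12a2 at 4.61 (8230th). The order differed by layer. Gad1 was the third in both superficial groups, at 66.5 ± 2.47 CPM per kilobase after cbx (SD, n = 4) and 73.4 ± 2.01 after saline (SD, n = 3). In deep libraries it stood on average below Abat and Slc32a1, at 36.9 ± 2.71 after cbx and 37.7 ± 1.98 after saline. Neighbours in the order were not always separate: in cbx superficial libraries Slc12a5 (65.4 to 83.0 CPM per kilobase) overlapped Gad1, and Slc32a1 (40.7 to 62.0) overlapped Abat (37.9 to 47.1).

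**Figure D1:**
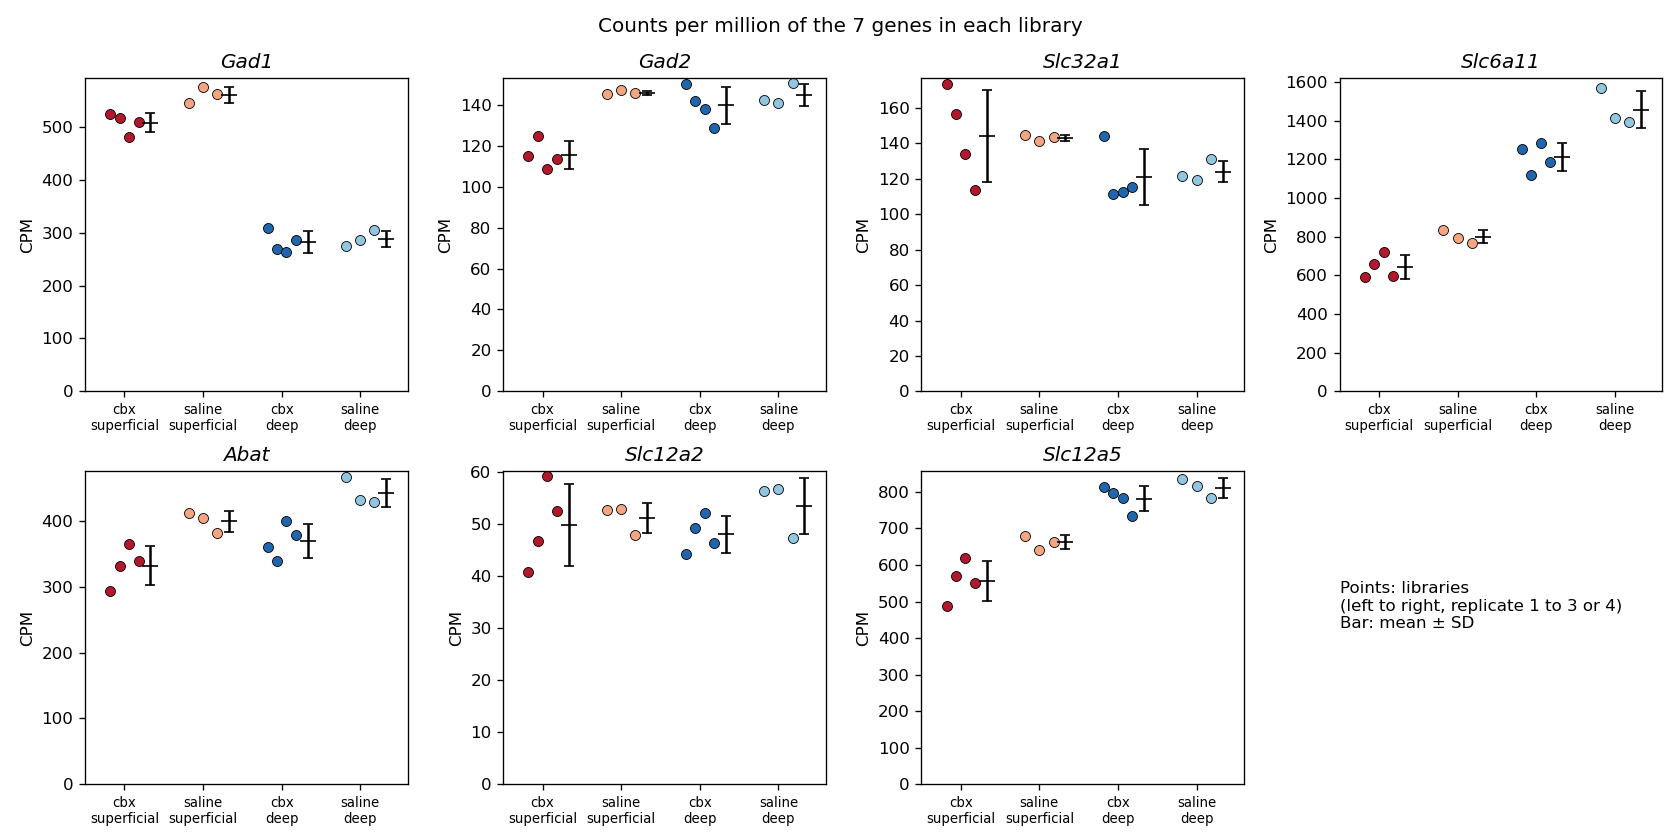
CPM (y axis, from 0) of the 7 genes in each of the 14 libraries by group (x axis); points are libraries and bars are mean ± SD. Gad1 is high and Slc6a11 and Slc12a5 are low in all superficial libraries, and in cbx superficial libraries Gad2 (108 to 125 CPM) lies below all others.

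The layers are compared first, since they differ most. Gad1 was higher in the superficial layer, and Slc6a11 and Slc12a5 were lower, after cbx and after saline alike. Gad2 was lower in the superficial layer after cbx, whereas its layers overlapped after saline; the test of that difference between treatments is given with the effect of cbx. After cbx 1 member was higher and 3 were lower in the superficial layer, where 32.2% of all genes tested were called (18.1% higher and 14.1% lower). After saline 1 was higher and 2 were lower, where 18.4% of all genes were called (9.67% higher and 8.73% lower). The median log2 difference of the 7 was -0.15 after cbx and -0.06 after saline, against 0.02 and 0.04 over all genes tested. The groups did not overlap for 4 members after cbx, where 29.6% of all genes tested did not overlap, and for 5 after saline, where 36.7% did not. With so many genes called, a share of 4 or 3 of 7 is described and not read as particular to these genes.

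Gad1, the GAD67 gene, had 524, 517.5, 481 and 509.7 CPM in cbx superficial libraries, against 309, 268.5, 263.5 and 285 CPM in cbx deep libraries. The saline libraries had 544.5, 575 and 561.5 CPM in the superficial layer, against 274, 286 and 304 CPM in the deep layer. The lowest superficial library was far above the highest deep library in both treatments. Gad1 was 1.80-fold higher in the superficial layer after cbx (log2 0.85, SE 0.062, edgeR adjusted p = 3.01e-09) and 1.94-fold higher after saline (0.96, SE 0.072, adjusted p = 9.51e-09). It was higher in the superficial library of all 7 pools, by 0.76 to 1.01 on the log2 scale.

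Gad2, the GAD65 gene, did not follow Gad1. It had 115, 125, 108 and 114 CPM in cbx superficial libraries, against 150.2, 142, 138 and 128.5 CPM in cbx deep libraries, which did not overlap. After saline it had 145, 147 and 145.5 CPM in superficial libraries, against 142, 141 and 151 CPM in deep libraries, and these overlapped. Gad2 was 17.4% lower in the superficial layer after cbx (log2 -0.27, SE 0.060, adjusted p = 0.00139), and the difference after saline was 0.01 (SE 0.069, adjusted p = 0.932), whose sign changed with the scaling. The ratio of Gad2 to Gad1 per kilobase was therefore 0.295 ± 0.012 in cbx superficial (SD, n = 4) and 0.339 ± 0.0073 in saline superficial libraries (SD, n = 3), against 0.646 ± 0.047 in cbx deep and 0.652 ± 0.019 in saline deep libraries. This ratio was chosen after its values were seen and is given as a description.

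Slc32a1, the VGAT gene, is the other marker of GABA neurons among the 7, and its layer difference was smaller and more variable than that of Gad1. It had 173, 156.5, 134 and 114 CPM in cbx superficial libraries, against 144, 112, 112 and 115 CPM in cbx deep libraries. After saline it had 145, 141 and 143 CPM in superficial libraries, against 122, 120 and 131 CPM in deep libraries. The groups overlapped after cbx and did not after saline. The difference missed the threshold in the 14-library fit after cbx (log2 0.26, SE 0.11, adjusted p = 0.0777) and after saline (0.21, SE 0.12, adjusted p = 0.292). With the pool as a block it passed after cbx (0.25, adjusted p = 0.00471) and after saline (0.21, adjusted p = 0.0495), and it was higher in the superficial library of 3 of 4 cbx pools and 3 of 3 saline pools. Without cbx superficial replicate 4, the lowest superficial library, the difference after cbx was 0.35 (adjusted p = 0.00564), and without cbx deep replicate 1, the highest deep library, it was 0.35 (adjusted p = 0.0132). Other exclusions weakened it: leaving out each of the 14 libraries in turn gave 0.16 to 0.35, with an adjusted p of up to 0.2805. An unstranded count could mix Slc32a1 with the antisense gene Gm14205, which shares 697 exon bases with it but had 14 reads in all, against 68325 for Slc32a1.

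Slc6a11, the astrocyte GABA transporter GAT-3, had the opposite pattern to Gad1. It had 592, 659.7, 722 and 599 CPM in cbx superficial libraries, against 1253, 1121, 1286 and 1187 CPM in cbx deep libraries. After saline it had 837.5, 795 and 770.2 CPM in superficial libraries, against 1570, 1412 and 1393 CPM in deep libraries. The layers were far apart in both treatments. Slc6a11 was 46.9% lower in the superficial layer after cbx (log2 -0.91, SE 0.073, adjusted p = 9.61e-09) and 45.1% lower after saline (-0.86, SE 0.084, adjusted p = 2.90e-07), and lower in all 7 pools. Astrocyte markers did not share this pattern as a group: of 10, 4 were higher and 2 lower in the superficial layer after cbx, and 2 were higher and 3 lower after saline. Gfap was at 379 to 536 CPM in cbx superficial libraries and 366 to 538 CPM in saline superficial libraries, against 4.90 to 17.6 CPM in cbx deep and 5.45 to 8.65 CPM in saline deep libraries. Aqp4 was also higher in the superficial layer (log2 1.45 after cbx, 1.28 after saline). S100b (-0.93 and -0.96) and Slc1a2 (-0.47 and -0.46) were lower there in both treatments, the direction of Slc6a11.

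Abat, which breaks GABA down in neurons and astrocytes, differed little between layers. It had 294, 331, 365 and 339 CPM in cbx superficial libraries, against 361, 339, 400.1 and 378 CPM in cbx deep libraries, with overlap. Its saline libraries had 412, 405 and 381 CPM in the superficial layer, against 466, 431 and 428 CPM in deep libraries, without overlap. The difference was -0.15 after cbx (SE 0.070, adjusted p = 0.1004) and -0.15 after saline (SE 0.081, adjusted p = 0.249), negative in all 7 pools. With the pool as a block the difference after cbx passed the threshold (-0.16, adjusted p = 0.0270), and it did so too without cbx deep replicate 2 (adjusted p = 0.0304) or cbx superficial replicate 3 (adjusted p = 0.0391). With other libraries left out the adjusted p was as high as 0.277.

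Of the chloride cotransporters, Slc12a5 was lower in the superficial layer and Slc12a2 was not called. Slc12a5, the KCC2 gene, had 487, 571, 618 and 550.2 CPM in cbx superficial libraries, against 813, 796, 783 and 734 CPM in cbx deep libraries. After saline it had 680.0, 642 and 663 CPM in superficial libraries, against 835, 817 and 782 CPM in deep libraries. No superficial library reached the lowest deep library of its treatment. Slc12a5 was 28.8% lower in the superficial layer after cbx (log2 -0.49, SE 0.068, adjusted p = 1.22e-05) and 18.5% lower after saline (-0.29, SE 0.078, adjusted p = 0.0106). The call after saline was lost without saline superficial replicate 2 (-0.27, adjusted p = 0.0576). It was also lost without saline pool 1 and cbx pool 4 (-0.29, adjusted p = 0.101), taken here as the pools of 1 sex although no label gives the sex.

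Slc12a2, the NKCC1 gene, had 40.9, 46.8, 59.2 and 52.6 CPM in cbx superficial libraries, against 44.2, 49.3, 52.2 and 46.3 CPM in cbx deep libraries. In saline pools it had 52.6, 52.9 and 47.8 CPM in superficial libraries, against 56.3, 56.8 and 47.3 CPM in deep libraries. The layers overlapped in both treatments, with a log2 difference of 0.06 after cbx (SE 0.095, adjusted p = 0.700) and -0.06 after saline (SE 0.11, adjusted p = 0.768).

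**Figure D2:**
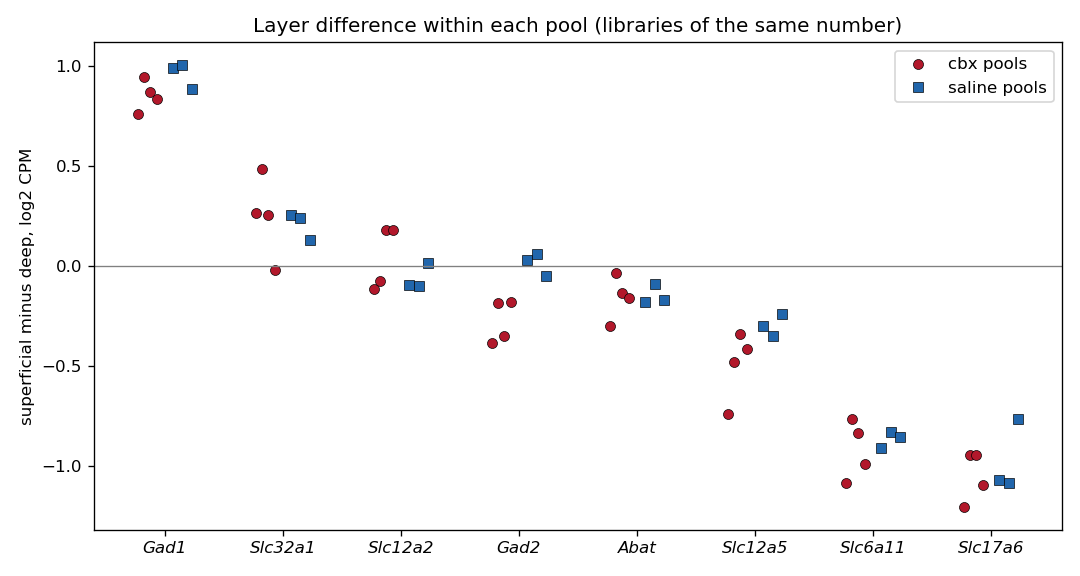
Superficial minus deep difference in log2 CPM (y axis) within each pool, taking same-numbered libraries of a treatment as a pool, for the 7 genes and for Slc17a6 (x axis); circles are the 4 cbx pools and squares the 3 saline pools. Gad1 lies at 0.76 to 1.01 and Slc17a6 at -1.21 to -0.76 in every pool, and Gad2 is below 0 in the 4 cbx pools.

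The layer difference of Gad1 was set beside that of Slc17a6, which encodes the vesicular glutamate transporter VGLUT2 and marks excitatory neurons of the colliculus. Slc17a6 averaged 199 ± 8.91 CPM in cbx superficial libraries, against 412 ± 23.1 CPM in cbx deep libraries (SD, n = 4 each). After saline it averaged 201 ± 18.2 CPM in superficial libraries, against 393 ± 16.3 CPM in deep libraries (SD, n = 3 each). It was lower in the superficial layer after cbx (log2 -1.05, SE 0.065, adjusted p = 3.01e-10) and after saline (-0.97, SE 0.075, adjusted p = 1.53e-08), the reverse of Gad1. The summed level of the 11 pan-neuronal markers was 5545 to 5772 CPM in cbx superficial and 5733 to 6099 CPM in saline superficial libraries, against 6291 to 6934 CPM in cbx deep and 6678 to 6862 CPM in saline deep libraries.

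Libraries after cbx were next compared with those after saline within each layer. The pools' share of male pups also differed between the treatments (Ddx3y, above). In the superficial layer, 3 of the 7 RNAs fell after cbx (Gad2, Slc6a11 and Abat), none rose, and Slc12a5 just missed the threshold. Over all genes tested, 4.33% were called in this comparison (2.68% higher and 1.65% lower). The groups did not overlap for 5 members (Gad1, Gad2, Slc6a11, Abat and Slc12a5), whereas 17.3% of all genes tested did not overlap, and 6 of the 7 differences were below 0, with a median of -0.25 against 0.0094 over all genes. In the deep layer, where 1.83% of all genes were called (1.06% higher and 0.777% lower), 0 members passed the threshold, although 2 (Slc6a11 and Abat) had an unadjusted p under 0.05 and groups that did not overlap, as 16% of all genes did not. All 7 deep differences were below 0, with a median of -0.05 against 0.0069 over all genes.

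Gad2 fell by 20.9% in cbx superficial libraries, at 115 ± 6.83 CPM (SD, n = 4) against 146 ± 0.964 CPM in saline superficial libraries (SD, n = 3; log2 -0.34, SE 0.064, adjusted p = 0.00774). All 4 cbx libraries lay below all 3 saline libraries. For Gad2, deep libraries averaged 140 ± 8.98 CPM after cbx, against 145 ± 5.35 CPM after saline, with overlap (log2 -0.05, SE 0.065, adjusted p = 0.794). The cbx effect differed between layers by -0.29 (SE 0.091, unadjusted p = 0.00526), the only member with an unadjusted p under 0.05 in that test, and its adjusted p was 0.414. The superficial call was kept in 21 of 24 alternatives and was lost when only the superficial libraries were fitted (adjusted p = 0.0510), without the pools of 1 sex (0.0809) and without saline superficial replicate 2 (0.0504).

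Gad1 averaged 508 ± 18.9 CPM in cbx superficial libraries, against 560.4 ± 15.4 CPM in saline superficial libraries. The groups did not overlap, but the difference did not pass the threshold (log2 -0.14, SE 0.066, adjusted p = 0.236). Deep libraries averaged 282 ± 20.7 CPM after cbx, against 288 ± 15.2 CPM after saline (log2 -0.03, SE 0.067, adjusted p = 0.881). Slc32a1 averaged 144.5 ± 26.0 CPM in cbx superficial libraries, against 143 ± 1.85 CPM in saline superficial libraries. Its cbx libraries lay on both sides of the saline ones, with a difference of 0.01 (SE 0.11, adjusted p = 0.968). Deep libraries differed in Slc32a1 by -0.04 (SE 0.11, adjusted p = 0.932).

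Slc6a11 and Abat were the members lower after cbx in both layers by similar amounts. Slc6a11 was 19.7% lower in cbx than in saline superficial libraries (log2 -0.32, SE 0.078, adjusted p = 0.0275) and 16.9% lower in cbx than in saline deep libraries (-0.27, SE 0.077, adjusted p = 0.0853). Abat was 16.8% lower in cbx superficial libraries (-0.27, SE 0.075, adjusted p = 0.0498) and 16.3% lower in cbx deep libraries (-0.26, SE 0.075, adjusted p = 0.0873). For both genes no cbx library reached a saline library of its layer, and the deep differences did not pass the threshold. The cbx effect on them differed between layers by -0.05 for Slc6a11 (SE 0.11, adjusted p = 0.926) and -0.01 for Abat (SE 0.11, adjusted p = 0.989). The superficial calls were less firm than that of Gad2: the Slc6a11 call was lost in 8 of 24 alternatives and the Abat call in 16. The Slc6a11 call was lost on leaving out any single saline superficial library or cbx superficial replicate 4 (adjusted p = 0.0544 to 0.108), and the Abat call on leaving out any single 1 of 12 of the 14 libraries, all but cbx deep replicate 2 and cbx superficial replicate 3 (0.0504 to 0.170). Without cbx superficial replicate 1 both genes passed in the deep layer (adjusted p = 0.0369 for Slc6a11 and 0.0272 for Abat). With other libraries left out the deep adjusted p was as high as 0.330 for Slc6a11 and 0.302 for Abat.

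Slc12a5 averaged 557 ± 54.5 CPM in cbx superficial libraries, against 662 ± 19.1 CPM in saline superficial libraries, without overlap. The difference of -0.25 (SE 0.073) had an adjusted p of 0.0551 in edgeR, 0.0163 in the DESeq2 test and 0.0432 in limma-voom. In edgeR the adjusted p was 0.0256 without cbx superficial replicate 3, the highest of the cbx group. With other libraries left out it was as high as 0.1675, and the differences spanned -0.30 to -0.19. With the replicate block the difference was -0.23 (adjusted p = 0.138). The deep difference of Slc12a5 was -0.05 (SE 0.073, adjusted p = 0.804). Slc12a2 differed by -0.04 in the superficial layer (SE 0.10, adjusted p = 0.885) and by -0.15 in the deep layer (SE 0.10, adjusted p = 0.523), with overlap in both.

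**Figure D3:**
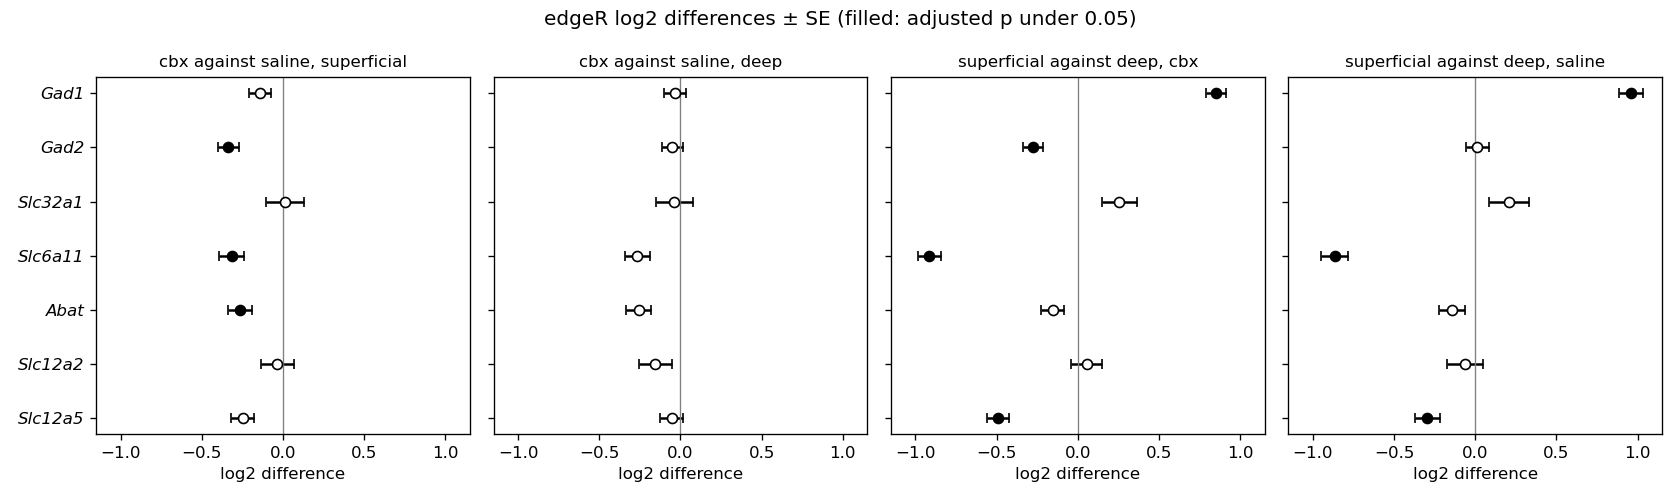
Log2 difference ± SE from edgeR (x axis) of the 7 genes (y axis) in 4 comparisons, each panel giving the group named first over the other; filled points have an adjusted p under 0.05. In the superficial layer 3 genes fell after cbx, in the deep layer 0 were called, and of the 7 only Gad1 is called higher between layers.

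Over all genes, 0 of 20330 passed the test of whether the cbx effect differed between layers, with 1699 at an unadjusted p under 0.05; limma-voom called 0 and DESeq2 called 60. The pools' sex moved with the treatment (Ddx3y, above). With Ddx3y as a covariate 1 of the 7 members was called in the superficial layer after cbx. The share of all genes called there was 2.15%, against 4.33% without the covariate. Without saline pool 1 and cbx pool 4, taken as pools of 1 sex although no label gives the sex, 0 members were called, and 0.435% of all genes. With fewer libraries in that fit, the superficial differences were -0.33 for Gad2, -0.25 for Slc6a11 and -0.25 for Abat, against -0.34, -0.32 and -0.27 in the 14-library fit. The part of the pools' sex in these differences was not tested further.

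Markers of other cells also differed in the cbx superficial libraries, where 4.33% of all genes tested were called (2.68% higher and 1.65% lower). Of 6 microglial markers 5 rose, with a summed level of 224 to 241 CPM against 163 to 186 CPM in saline superficial libraries. Of 10 meningeal fibroblast markers 4 rose, with a sum of 692 to 1379 CPM against 536 to 794 CPM, and of 5 red blood cell genes 1 rose, with a sum of 238 to 388 CPM against 149 to 230.5 CPM. Of 10 astrocyte markers 1 fell (Slc1a3, a glutamate transporter, log2 -0.32, SE 0.084, adjusted p = 0.0358), with a sum of 2838 to 3367 CPM against 2974 to 3654 CPM. Of 11 pan-neuronal markers 1 was called higher, with a sum of 5545 to 5772 CPM against 5733 to 6099 CPM. None of the 8 vascular, 8 oligodendrocyte or 6 choroid plexus and ependymal markers was called there. Of 10 tectal markers 2 rose there, Cbln2 (0.45, SE 0.11, adjusted p = 0.0264) and Sox14 (0.41, SE 0.11, adjusted p = 0.0445). In the deep layer 1.83% of all genes tested were called after cbx (1.06% higher and 0.777% lower). Over the 10 marker lists 3 genes fell there: Sox9 of the astrocyte list (-0.42, SE 0.087, adjusted p = 0.0160), Sox10 of the oligodendrocyte list (-0.28, SE 0.068, adjusted p = 0.0410) and En2 of the tectal list (-0.67, SE 0.14, adjusted p = 0.0213). The astrocyte sum there was 2058 to 2368 CPM after cbx, against 2346 to 2869 CPM after saline. The median log2 difference of the 10 astrocyte markers after cbx was -0.20 in the deep and -0.08 in the superficial layer. The part of the cells named in this paragraph in the falls of Gad2, Slc6a11 and Abat was not tested.

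The ratio of Slc12a5 to Slc12a2, each per kilobase, compares the chloride exporter with the importer within a library, where scaling factors cancel. It was 17.5, 17.9, 15.3 and 15.4 in cbx superficial libraries, against 27.0, 23.7, 22.0 and 23.3 in cbx deep libraries. After saline it was 18.9, 17.8 and 20.3 in superficial libraries, against 21.8, 21.1 and 24.3 in deep libraries. The exporter's RNA exceeded the importer's in every library, and the superficial ratio lay below every deep ratio of the same treatment.

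After cbx the ratio was 31.1% lower in the superficial layer, with a mean log2 difference of -0.54 (SE 0.086, n = 4 against 4). The 2-sided exact permutation p was 0.0286, the smallest that 70 regroupings can give, and 0.143 after Benjamini-Hochberg adjustment over the 5 comparisons of the ratio. These regroupings ignore the pairing of layers within pools. With the pairing kept the exact sign-flip p was 0.125, the smallest that 4 pools allow. After saline the ratio was 14.95% lower (log2 -0.23, SE 0.082, n = 3 against 3), with an exact p of 0.1, the smallest that 20 regroupings can give, so this comparison could not reach 0.05. Within pools the superficial ratio was lower in 7 of 7, by a mean of -0.41 on the log2 scale (SD 0.18, from -0.63 to -0.20). This pooled comparison was added after the data were seen; its exact sign-flip p was 0.0156, the smallest that 128 sign patterns can give.

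The layer difference of the ratio was larger in the 4 cbx pools (-0.63, -0.40, -0.52 and -0.60) than in the 3 saline pools (-0.20, -0.25 and -0.25), with no overlap. The mean difference between treatments was -0.30 (SE 0.053), with an exact permutation p of 0.0571 and an adjusted p of 0.143. Within a layer, the ratio averaged 16.5 ± 1.37 in cbx superficial libraries, against 19.0 ± 1.28 in saline superficial libraries, with overlap (log2 -0.21, SE 0.082, exact permutation p = 0.114). In the deep layer it averaged 24.0 ± 2.12 after cbx, against 22.4 ± 1.66 after saline (log2 0.098, SE 0.087, exact permutation p = 0.343).

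**Figure D4:**
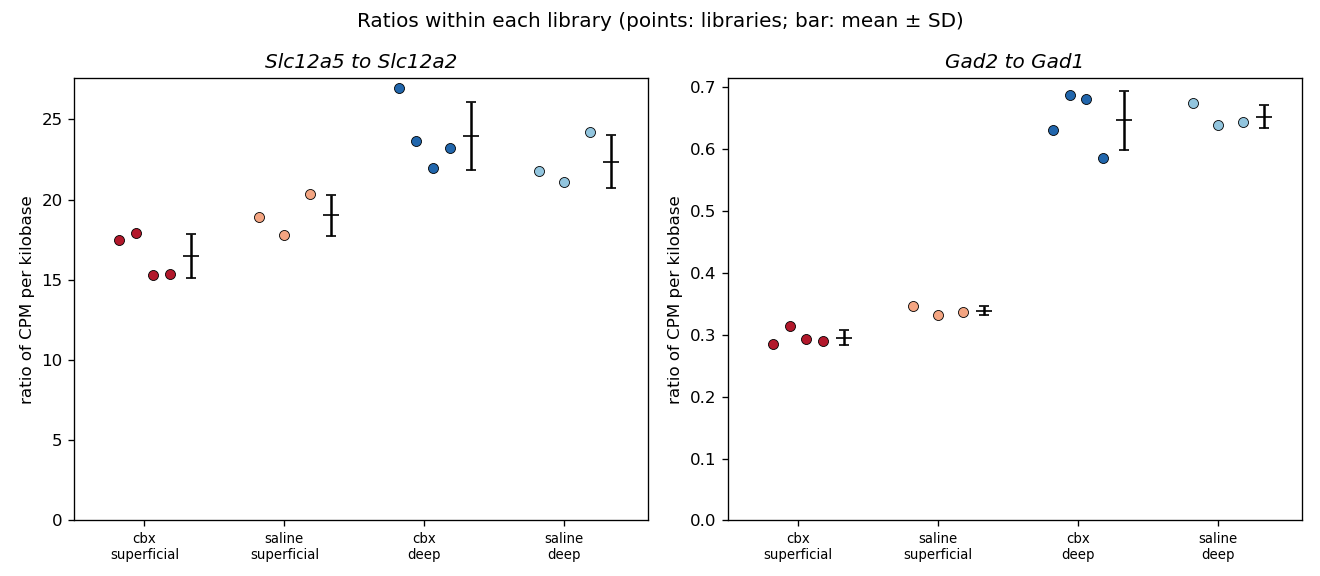
Ratios of CPM per kilobase (y axes, from 0) in each library by group (x axis), Slc12a5 to Slc12a2 on the left and Gad2 to Gad1 on the right; points are libraries and bars are mean ± SD. Both ratios are lower in the superficial than in the deep libraries of each treatment, with Slc12a5 to Slc12a2 at 15.3 to 17.9 in cbx superficial libraries.

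Genes that supply glutamate for GABA or carry GABA across other membranes were counted over 17 genes. After cbx 2 rose and 1 fell in the superficial layer (median -0.04), where 4.33% of all genes were called, and 0 were called in the deep layer (median 0.0014), where 1.83% were. Aldh5a1, which clears the product of Abat, fell (115 ± 5.11 CPM in cbx against 138 ± 8.16 CPM in saline superficial libraries; log2 -0.25, SE 0.064, adjusted p = 0.0310). Slc6a12 and Slc6a13, GABA and betaine transporters known from the meninges and vessel borders of the brain, rose: Slc6a12 by 1.59 (SE 0.34, adjusted p = 0.0205; 12.4 ± 6.06 CPM in cbx against 4.14 ± 0.748 CPM in saline superficial libraries), and Slc6a13 by 1.00 (SE 0.24, adjusted p = 0.0400; 65.6 ± 22.6 CPM against 32.9 ± 6.25 CPM). The meningeal markers moved the same way in those libraries (above), and their part in this rise was not tested.

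Between layers the same 17 genes had 6 higher and 3 lower in the superficial layer after cbx (median -0.04; 32.2% of all genes called), and 6 higher and 1 lower after saline (median 0.13; 18.4% of all genes called). Slc6a13 was higher by 5.64 after cbx (SE 0.29, adjusted p = 1.97e-08) and by 3.78 after saline (SE 0.31, adjusted p = 3.07e-06), and all 10 meningeal markers were higher there in both treatments. The amino acid transporter genes Slc38a2 (0.44 after cbx, 0.35 after saline), Slc38a5 (0.98 and 0.80) and Slc7a11 (1.47 and 1.09) were also higher in both. Glul, the glutamine synthetase of astrocytes, was lower after saline (-0.23, SE 0.066, adjusted p = 0.0181) and not called after cbx (-0.12, SE 0.057, adjusted p = 0.119). Aldh5a1 was lower after cbx (-0.20, SE 0.060, adjusted p = 0.0155) and not called after saline (-0.085, SE 0.069, adjusted p = 0.463). The called values of Glul and Aldh5a1 stood beyond the 6 smallest p of the list in their comparisons.

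Among 12 other carriers of chloride, bicarbonate and other ions, 0 rose and 1 fell in the superficial layer after cbx (Slc12a9, -0.25, SE 0.063, adjusted p = 0.0342), with a median of -0.15, and 0 were called in the deep layer (median 0.03), where 4.33% and 1.83% of all genes were called. In the superficial against the deep layer 2 were higher and 4 lower after cbx (median -0.14; 32.2% of all genes called), and 1 was higher and 3 lower after saline (median -0.04; 18.4% called). Slc4a3, an anion exchanger, was lower after cbx (-0.53, adjusted p = 8.52e-07) and after saline (-0.39, adjusted p = 0.000331), the direction of Slc12a5. Slc12a7, the KCC4 gene, was higher after cbx (0.82, adjusted p = 0.000993) and after saline (0.76, adjusted p = 0.0104).

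Kinases and partners that act on the cotransporters were counted over 11 genes. After cbx 1 rose in the superficial layer (Cab39l, 0.34, SE 0.095, adjusted p = 0.0459; median 0.03) and 0 were called in the deep layer (median 0.01), again against 4.33% and 1.83% of all genes. Between layers 3 were higher and 2 lower in the superficial layer after cbx (median -0.04; 32.2% of all genes called), and 2 were higher and 1 lower after saline (median 0.0098; 18.4% called). Stk39, the SPAK kinase that activates NKCC1 and restrains KCC2, was lower in the superficial layer after cbx (-0.46, SE 0.061, adjusted p = 7.05e-06) and after saline (-0.49, SE 0.071, adjusted p = 4.07e-05). Neto2, a KCC2-binding membrane protein, was higher after cbx (0.36, adjusted p = 6.59e-05) and after saline (0.39, adjusted p = 0.000205), and so was Wnk4, a kinase upstream of Stk39 (1.17, adjusted p = 0.000400, and 0.81, adjusted p = 0.0369).

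Over the 14 libraries, which share groups and pools, the members' log2 CPM fell into patterns that are given as descriptions. Slc6a11 and Slc12a5 were alike (Pearson r = 0.95 over 14 libraries, 0.70 after removal of the group means), and Gad1 ran against Slc6a11 (-0.90, and -0.37 after removal). Gad1 and Gad2 were not alike across groups (-0.36) but were positively related within them (0.53). Among 11614 protein-coding genes, the most like Gad1 were Tac1 (r = 0.99, 0.57 after removal of the group means), Shisa8 (0.99, 0.62) and C1ql2 (0.99, 0.63). Among those most like Gad2 were Ptpn5 (0.89, 0.40) and Kcnh2 (0.89, 0.61). For Slc6a11 they were Adcy2 (0.99, 0.81), Hs6st2 (0.99, 0.70) and Tyro3 (0.99, 0.69), and for Slc12a5 they were Ptprn2 (0.98, 0.95), Slc8a2 (0.98, 0.91) and Adgrb3 (0.98, 0.86). Slc32a1 was most like Mesd (0.92, 0.88), Vmp1 (0.91, 0.88) and Sf3b6 (0.90, 0.89), and Slc12a2 most like Zfp462 (0.92, 0.94), Slc23a2 (0.92, 0.90) and Chd1l (0.91, 0.91); for these, unlike Gad1, most of the likeness remained after the group means were removed.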

How the data were processed

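For each library the authors deposited a table of raw gene counts. The tools were STAR 2.7.9d, Subread 2.0.1 with featureCounts, SAMtools 1.14 and FastQC 0.11.9, per the submitters' processing notes, which name 2 builds (GRCm39, mm10) and do not say which was used. Annotation and strand setting: not given in the sources used here. Symbols were matched by Ensembl ID, and exon lengths came from GENCODE M21 (GRCm38), which may not be the counting annotation. In edgeR 4.0.16 (R 4.3.3), filterByExpr left 20330 genes, TMM factors scaled the libraries, and 4 group means were fitted over 14 libraries with a robust quasi-likelihood model (10 residual degrees of freedom), with Benjamini-Hochberg adjustment over all genes and a threshold of 0.05; the code was tested on simulated data. SEs are log2 differences over the root of F. Ratios were tested by exact permutation. Alternatives used DESeq2 1.42.0, limma 3.58.1 and other settings. Replicate numbers come from the titles: same-numbered layers of a treatment deviated together (correlations 0.182 to 0.394 in all 7 pairs), so they were taken as pools, whereas same-numbered libraries of different treatments did not (-0.276 to -0.0167 within a layer, -0.289 to 0.0651 across layers). Replicates differed beyond sampling noise (chi-square per gene 7.66 to 51.5), so each counted as 1 sample. The members and gene lists were chosen with earlier results of these data known. Listed genes were named by rule (up to 6 called genes per list with the smallest p, and the 3 genes most correlated with a member, at a mean of at least 5 CPM), and some of those are not reported here.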

Additional observations from a re-analysis of the deposited data

Results flagged for a closer look

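Slc32a1 in cbx deep replicate 1 stood apart from its group, at 144.3 CPM against 112 to 115 CPM in the other 3 cbx deep libraries. That library also had the highest total count (48776827). Of 16 groups of 4 libraries examined, which reuse the same cbx libraries, this was the only one with a library that far apart. Chance flags about 1 group in 20, so 1 flag in 16 groups is near what chance gives. Without it the difference of Slc32a1 between cbx and saline in the deep layer was -0.13 rather than -0.04, and between the superficial and deep layers after cbx it was 0.35 (adjusted p = 0.0132) rather than 0.26.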

How the results depend on the processing

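Gad1 and Slc6a11 in both layer comparisons and Gad2 and Slc12a5 in that after cbx were called in all 24 alternatives (10 settings and each of 14 libraries left out). The counts of members were less stable. In the superficial layer after cbx 3 were called in the 14-library fit (4.33% of all genes). Of these, 1 was called with a replicate block (2.36% of all genes) and 1 with Ddx3y as a covariate (2.15%). With only the groups compared 0 were called (0.737%), and without the pools of 1 sex 0 (0.435%). Leaving out each library in turn gave 0 to 4 members (0.666% to 4.49% of all genes). In the deep layer 0 were called in the 14-library fit (1.83% of all genes). There DESeq2 called 2 (4.43% of all genes), the groups compared alone 2 (3.23%) and removal of length and GC trends 1 (2.75%). Leaving out a library gave 0 to 2 in the deep layer (0.199% to 3.64% of all genes). Between layers, leaving out a library gave 4 to 5 members after cbx (26.8% to 31.1% of all genes) and 2 to 3 after saline (12.8% to 21.6%). For the layer dependence of the cbx effect it gave 0 to 0 members (0% to 0.069% of all genes). With the replicate block, which across treatments pairs libraries that share only a number, Gad2 kept its superficial call (adjusted p = 0.0315), Slc6a11 (0.0773) and Abat (0.0877) lost theirs; beyond these and the calls of Slc32a1 and Abat between layers the block changed no other call. The ratio of Slc12a5 to Slc12a2 between layers after cbx was -0.54 with the block (exact sign-flip p = 0.125, the smallest that 4 pools allow) and -0.52 without the pools of 1 sex (exact p = 0.1); leaving out a library gave -0.58 to -0.48.

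Differences that changed sign were near 0 and not called. Slc32a1 after cbx was -0.010 (1 CPM filter) and -0.0072 (limma-voom) in the superficial layer, and 0.020 (block) and 0.052 (Ddx3y) in the deep layer. Slc12a2 in the superficial layer after cbx was 0.018 and Abat in the layer dependence 0.021 with length and GC trends removed. Gad2 between layers after saline was -0.015 with median-of-ratios factors, -0.0086 without a filter, -0.0051 with the 1 CPM filter, -0.015 in DESeq2, -0.012 with only the groups compared and -0.067 with trends removed. Leaving out a library spanned -0.087 to 0.11 for Slc32a1 and -0.13 to 0.048 for Slc12a2 after cbx in the superficial layer, -0.082 to 0.0063 for Gad1 and -0.13 to 0.0037 for Slc32a1 in the deep layer, -0.0055 to 0.044 for Gad2 between layers after saline, -0.038 to 0.14 for Slc12a2 between layers after cbx, and -0.051 to 0.15 for Slc32a1 and -0.058 to 0.046 for Abat in the layer dependence. The cause was not tested.

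Over all genes the 880 calls in the superficial layer after cbx became 1459 without a filter, 1585 in DESeq2, 142 with only the groups compared, 480 with the block, 437 with Ddx3y, 91 without the pools of 1 sex and 140 to 907 with a library left out. The 373 in the deep layer became 566, 901, 611, 191, 254, 14 and 42 to 737 in the same order, and 560 with length and GC trends removed, where the split of higher and lower was 226 and 334 rather than 215 and 158. After saline the layers' split was 1603 and 2445 with trends removed, against 1965 and 1774, and 2133 genes were called without the pools of 1 sex rather than 3739. For the layer dependence, 0 became 256 without a filter, 61 with the block and 60 in DESeq2. No protein or chloride level was measured.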
